A study of Mus musculus with 20 samples.

Results

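The comparison set the livers of 10 mice given phenobarbital against the livers of 10 mice given the vehicle, with the length of dosing as a block. It used all 20 arrays of the series, and its members were chosen by treatment label and by no measured value. Pooling the durations asks for smaller, sustained changes that 5 animals against 5 could not call. All animals were male CD-1 mice, an outbred stock, dosed by mouth once a day. Phenobarbital sodium was given at 80 mg/kg/day to 5 mice for 28 days and to 5 other mice for 90 days (PB below). The vehicle, methylcellulose 15 with phenobarbital at 0 mg/kg/day, was given to 5 mice for 28 days and to 5 others for 90 days (CMC below). Each mouse gave 1 array from its left lateral liver lobe, taken on the day after the last dose. The labels used here give no ages, and whole lobe tissue holds all the cell types of the liver. Values are log2 intensities from Affymetrix 3' expression arrays, and every difference is PB minus CMC in log2 units with its standard error.

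Phenobarbital is a sedative and antiepileptic drug that activates the constitutive androstane receptor (CAR, gene Nr1i3) of hepatocytes without binding in its ligand pocket. The activated receptor moves to the nucleus, pairs with the retinoid X receptor and raises genes of drug clearance, of which the Cyp2b genes are the classical targets. These genes act in sequence: cytochromes P450 and esterases open a molecule to attack, sulfo-, glucuronosyl- and glutathione transferases attach a polar group, and export pumps carry the product out of the cell. In rodents, prolonged activation of CAR is known for liver enlargement and for promoting liver tumours.

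Of the variance between arrays, 55.6% lay along the first principal component. PB replicate 5 at 28 days scored -107.9 on it and PB replicate 3 at 90 days scored -65.22, while the next lowest array, of a CMC mouse, scored -39.81. The PB mean minus the CMC mean was -18.6 units, a difference that did not pass an exact permutation test within durations (two-sided p = 0.282, n = 10 per treatment, 63504 labellings). The summed log2 level of 6 hepatocyte markers was 16.66, 17.02 and 17.06 in PB livers (lowest, median, highest) and 16.88, 17.05 and 17.09 in CMC livers. The sum follows its brightest members, such as Alb at 14.82 to 15.18 on all arrays. Apob, another of the 6, was 8.32 in PB replicate 5 at 28 days and 8.98 in PB replicate 3 at 90 days. On the other arrays Apob was 10.22 to 12.56, and the cause was not tested. Of the 6 markers, 1 had a difference above 0. Markers of macrophages, lymphocytes, endothelium, stellate cells, bile ducts, red cells and other tissues overlapped between treatments, and their part in the results was not tested. In tissue of this kind, fewer cells of a type and less RNA per cell cannot be told apart.

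In the pooled fit 32 of 16054 genes passed an adjusted p under 0.05 (limma, Benjamini-Hochberg), which is 0.199% of the genes tested. Of these, 29 rose (0.181%) and 3 fell (0.0187%) with phenobarbital. The unadjusted p was under 0.05 for 1129 genes (7.03%), with 728 of them higher (4.53%) and 401 lower (2.50%). Without the 2 PB arrays that stood apart 39 genes were called, 36 higher and 3 lower. The arrays of 15 genes did not overlap between the 10 PB and the 10 CMC livers (0.0934% of the genes tested), and all 15 were among the 32. Of the 29 that rose, 14 encode enzymes or pumps of drug clearance: 8 P450 genes, 1 esterase, 2 sulfotransferases, 2 glutathione transferases of the theta class and 1 export pump. Each value for all 32 genes is drawn in the map of changes by array.

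**Figure D1:**
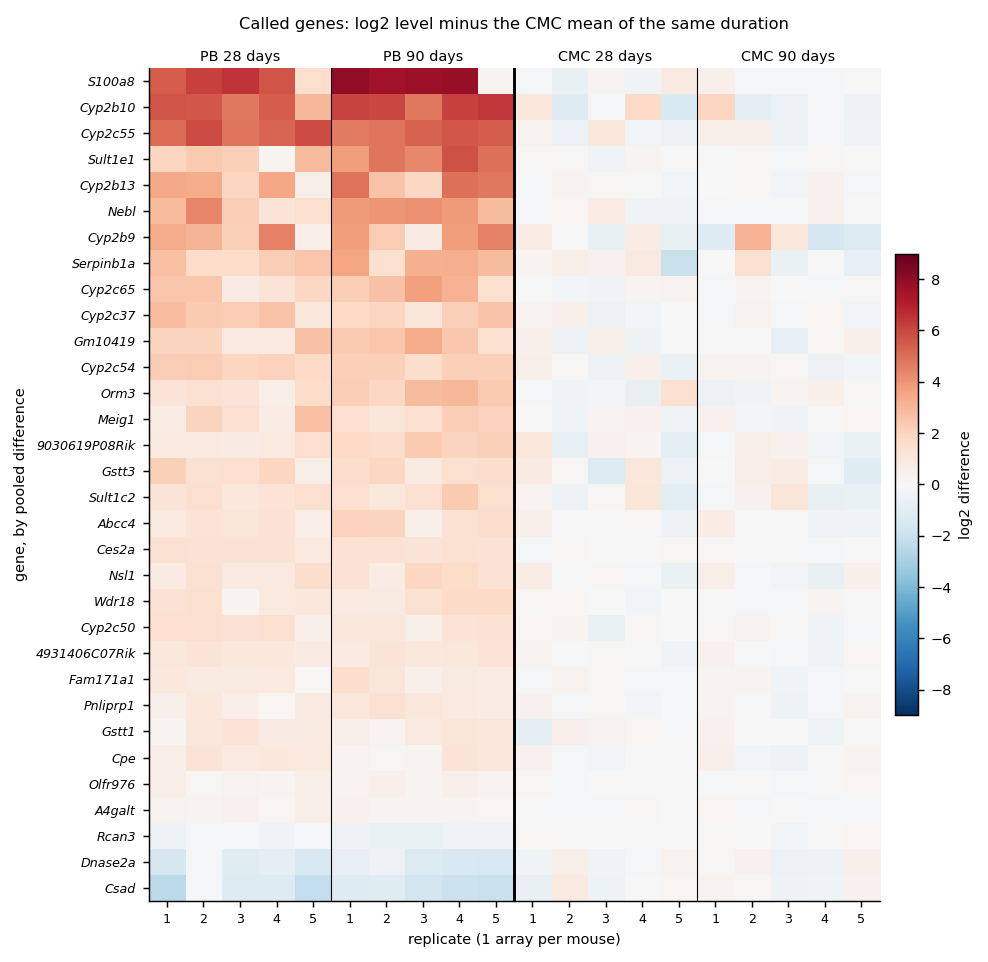
Map of the 32 genes that passed the pooled test (rows) across the 20 arrays (columns, PB left of CMC), coloured by log2 intensity minus the mean of the CMC arrays of the same duration. The 29 genes that rose are warm across most PB arrays, the 3 that fell (Csad, Dnase2a and Rcan3) are cool there, and S100a8 shows PB replicate 5 of both durations apart from the other PB arrays.

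The same model with a separate mean for each of the 4 groups called 8 genes at 28 days (0.0498% of the genes tested) and 23 at 90 days (0.143%). Of the 32 pooled calls, 8 were also called at both durations, 14 at 90 days and not at 28 days, and 10 at neither. These 10 comprised 8 genes that rose and 2 that fell, and their effects at 28 and 90 days had the same sign in all 10. The typical standard error was 0.12 in the pooled fit, against 0.173 for a single duration. The pooled effects of these 10 ranged in size from 0.291 to 2.88 log2 units, so they held large changes with a wide spread as well as small ones. The plot of effects by duration sets the 2 single-duration estimates beside the pooled one for each gene.

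**Figure D2:**
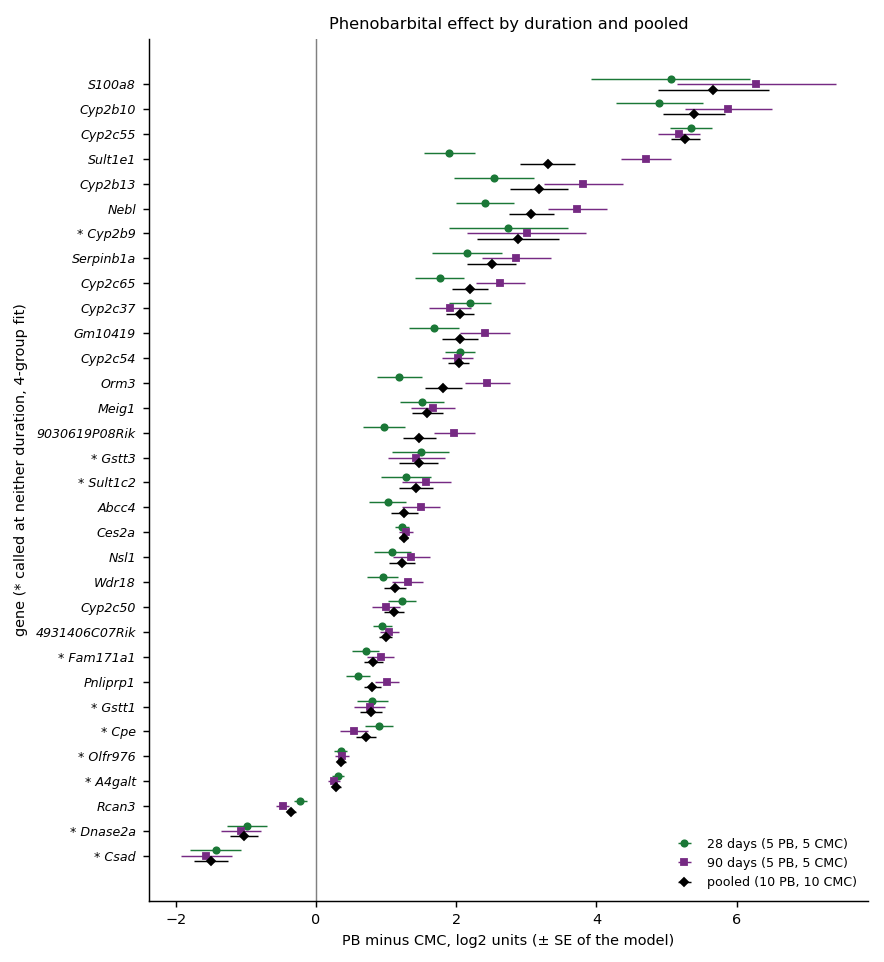
Effect of phenobarbital (PB minus CMC, log2 units, bars are standard errors) at 28 days, at 90 days and pooled for the 32 genes called in the pooled fit, with an asterisk on those called at neither duration in the fit of 4 group means. The pooled estimates lie between the 28-day and the 90-day ones, with shorter bars except for Sult1e1, which has the widest gap between durations (1.90 and 4.71) and a pooled bar of 0.39 against 0.36 at each duration.

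Of the 10 genes called in the pooled fit and at neither duration in the fit of 4 group means, Csad had the smallest p. It encodes cysteine sulfinic acid decarboxylase, an enzyme of taurine synthesis from cysteine. Csad measured 9.31, 10.56 and 11.59 in PB livers (lowest, median, highest) and 11.11, 11.89 and 12.61 in CMC livers. All PB livers but 1 lay below every CMC liver. Csad fell by 1.499 ± 0.25 log2 units, or 2.83-fold (adjusted p = 0.00367), with effects of -1.43 ± 0.36 at 28 days and -1.56 ± 0.36 at 90 days. A fit of the 90-day arrays alone also called it (adjusted p = 0.0162). It was bright, with a CMC mean 7.94 log2 units above the array background, and its call held in all 20 removals of a single array. Dnase2a, which encodes a lysosomal deoxyribonuclease that clears DNA of engulfed cells, was the other gene of the 10 that fell. Dnase2a measured 10.13, 10.59 and 11.56 in PB livers against 11.24, 11.74 and 12.35 in CMC livers, a fall of 1.03 ± 0.19 (adjusted p = 0.0176). The groups overlapped through 2 PB livers, 8 of the 10 lying below all CMC values, and the effects were -0.99 at 28 days and -1.07 at 90 days. Without the 2 PB arrays that stood apart its adjusted p was 0.0565 at a change of -0.949.

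Both theta-class glutathione transferases that rose, Gstt3 and Gstt1, were called at neither duration alone. These enzymes join glutathione to small halogenated and electrophilic molecules. Gstt3 measured 9.23, 10.64 and 11.07 in PB livers and 7.44, 9.17 and 9.87 in CMC livers, and all but 1 PB liver lay above every CMC liver. It rose by 1.46 ± 0.28 (adjusted p = 0.0176), with 1.49 ± 0.40 at 28 days and 1.43 ± 0.40 at 90 days. Gstt1 was much brighter on its own probe set, at 12.09, 12.73 and 13.00 in PB livers and 11.03, 11.95 and 12.35 in CMC livers. It rose by 0.79 ± 0.15 (adjusted p = 0.0244), close to 0.80 at 28 days and 0.77 at 90 days. The call of Gstt1 was lost in 7 of the 20 removals of a single array, where its adjusted p reached 0.0662, and its p was 0.0617 without both arrays that stood apart. Gstt1 and Gstt3 are neighbours on chromosome 10 with 0 coding genes between them, and Gstt2, another member of the class, had a difference of -0.06 ± 0.20 (adjusted p = 0.917).

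Sult1c2, a cytosolic sulfotransferase, measured 7.52, 7.94 and 8.84 in PB livers and 5.60, 6.50 and 7.66 in CMC livers. The CMC livers were the more widely spread, and 2 of them reached into the PB range. Sult1c2 rose by 1.43 ± 0.24 (adjusted p = 0.00548), with 1.29 at 28 days and 1.58 at 90 days. Fam171a1, a membrane protein gene, was dim at 4.49, 5.27 and 6.16 in PB livers and 4.21, 4.48 and 4.83 in CMC livers. It rose by 0.82 ± 0.14 (adjusted p = 0.00473), and PB replicate 5 at 28 days was the 1 PB liver that lay inside the CMC range. Both calls held in all 20 removals of a single array.

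Cyp2b9, a P450 gene more expressed in female than in male mouse liver, had the largest of the 10 effects and the widest spread. It measured 6.26, 8.87 and 10.55 in PB livers and 4.51, 5.35 and 9.13 in CMC livers. CMC replicate 2 at 90 days, at 9.13, lay above the median PB liver, and only 4 PB livers exceeded it. The change was 2.88 ± 0.58 (adjusted p = 0.0363), or 7.34-fold, with 2.75 ± 0.85 at 28 days and 3.01 ± 0.85 at 90 days. The call was lost in 14 of the 20 removals of a single array, with an adjusted p of up to 0.0984. Without CMC replicate 2 at 90 days the change was 3.23 (adjusted p = 0.00346).

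The remaining 3 of the 10 were small changes on dim probe sets. Cpe, which encodes carboxypeptidase E, a processing enzyme of prohormones, measured 4.66, 5.35 and 5.68 in PB livers and 4.09, 4.47 and 4.97 in CMC livers. It rose by 0.72 ± 0.14 (adjusted p = 0.0283), a call lost in 12 of the 20 removals, and its other probe set, below background in CMC livers, gave 0.40 (adjusted p = 0.703). A4galt, the synthase of the glycolipid Gb3, measured 4.70, 4.77 and 5.00 in PB livers and 4.35, 4.49 and 4.70 in CMC livers. It rose by 0.29 ± 0.06 (adjusted p = 0.0364), the smallest change called, and the call was lost in 14 of the 20 removals. Olfr976, an olfactory receptor gene, measured 3.86, 4.07 and 4.35 in PB livers and 3.57, 3.74 and 3.90 in CMC livers (difference 0.36 ± 0.07, adjusted p = 0.0135). Its CMC values lay below the array background, the 25th percentile of each array, on all 10 CMC arrays, and its PB mean lay 0.03 log2 units above it. No fold is given for it. The values of all 10 genes on every array are in the panels by gene.

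**Figure D3:**
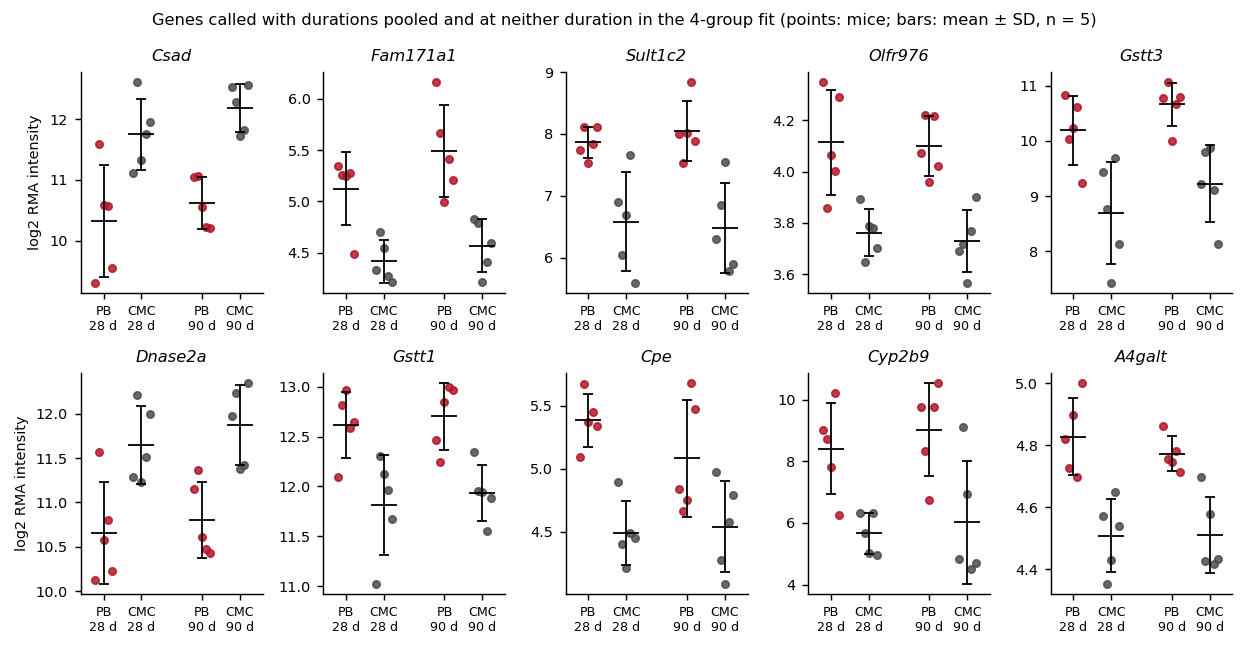
Log2 intensity on each array of the 10 genes called in the pooled fit and at neither duration in the fit of 4 group means, with PB left of CMC at each duration and bars for the mean ± SD of each group of 5. Csad and Dnase2a lie lower in PB at 28 and at 90 days, the other 8 lie higher, and Cyp2b9 shows 1 CMC mouse of 90 days at 9.13.

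The P450 genes formed the largest group, with 8 of 36 tested called, all higher. They lie in 3 runs of neighbouring genes. On chromosome 7, Cyp2b10, Cyp2b13 and Cyp2b9 follow each other with 0 coding genes between. On chromosome 19, Cyp2c55 lies beside Cyp2c65, and Cyp2c37, Cyp2c54 and Cyp2c50 lie side by side, with 8 genes between these runs. Promoters of the chromosome 7 run and of 2 genes of the second chromosome 19 run are shown because these neighbouring genes rose together. They are from RefSeq (GRCm38.p6), from 250 bases before to 50 bases after the gene start, on the plus strand, 5' to 3', and capitals mark the nuclear receptor motifs AGGTCA and AGTTCA on either strand. Their positions are chr7:25897408-25897707 (Cyp2b10), chr7:26061245-26061544 (Cyp2b13), chr7:26173159-26173458 (Cyp2b9), chr19:39992174-39992473 (Cyp2c37) and chr19:40089429-40089728 (Cyp2c50).
Cyp2b10: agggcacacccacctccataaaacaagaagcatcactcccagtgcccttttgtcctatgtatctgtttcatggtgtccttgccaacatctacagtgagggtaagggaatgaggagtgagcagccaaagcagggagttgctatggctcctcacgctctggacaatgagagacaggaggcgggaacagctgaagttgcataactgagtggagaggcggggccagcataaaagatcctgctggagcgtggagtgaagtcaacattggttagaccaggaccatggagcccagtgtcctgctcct
Cyp2b13: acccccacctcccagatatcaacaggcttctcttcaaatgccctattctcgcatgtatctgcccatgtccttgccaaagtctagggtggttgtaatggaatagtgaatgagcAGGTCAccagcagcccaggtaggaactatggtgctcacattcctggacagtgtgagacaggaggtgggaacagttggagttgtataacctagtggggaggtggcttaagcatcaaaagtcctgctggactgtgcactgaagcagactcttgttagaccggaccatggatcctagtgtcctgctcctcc
Cyp2b9: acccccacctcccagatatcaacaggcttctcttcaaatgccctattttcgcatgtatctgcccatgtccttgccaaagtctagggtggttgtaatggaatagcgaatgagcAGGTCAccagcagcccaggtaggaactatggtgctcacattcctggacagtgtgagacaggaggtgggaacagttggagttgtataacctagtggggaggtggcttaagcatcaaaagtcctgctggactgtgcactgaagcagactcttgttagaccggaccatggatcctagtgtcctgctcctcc
Cyp2c37: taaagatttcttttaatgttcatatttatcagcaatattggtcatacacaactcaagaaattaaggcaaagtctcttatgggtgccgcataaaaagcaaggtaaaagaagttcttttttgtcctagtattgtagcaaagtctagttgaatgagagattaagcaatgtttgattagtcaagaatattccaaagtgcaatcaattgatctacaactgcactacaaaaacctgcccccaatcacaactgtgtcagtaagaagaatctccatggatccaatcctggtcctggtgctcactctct
Cyp2c50: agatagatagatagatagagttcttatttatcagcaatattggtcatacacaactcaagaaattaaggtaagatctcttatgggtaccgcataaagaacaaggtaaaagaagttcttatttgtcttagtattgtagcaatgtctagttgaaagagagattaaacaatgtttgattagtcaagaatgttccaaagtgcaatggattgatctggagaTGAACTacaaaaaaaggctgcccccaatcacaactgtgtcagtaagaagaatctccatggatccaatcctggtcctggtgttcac

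The promoters of Cyp2b13 and Cyp2b9 shared 99.3% of aligned bases and differed by C48T and T104C, counted from the 5' end of the window with the base of Cyp2b13 first. That of Cyp2b10 shared 70.1% with each, and those of Cyp2c37 and Cyp2c50 shared 86.6%. Other neighbouring called genes, whose promoters are not shown, shared less: 50.3% for Cyp2c55 and Cyp2c65, and 43.3% for Gstt3 and Gstt1. Promoters were at hand for 27 of the 32 called genes. AGGTCA was in 4 of these 27 (Ces2a, Sult1e1, Cyp2b13 and Cyp2b9), and in 16.3% of 32851 promoters of the same length. AGTTCA was in 4 of the 27 (Nebl, Cyp2c50, Meig1 and Dnase2a), and in 4597 of the 32851 promoters. A direct repeat of AGNTCA with 4 bases between its copies, on either strand, was in 0 of the 27 and in 0.125% of the promoters. A repeat this rare was unlikely to be met in 27 promoters, and bases outside the window were not searched. The count of 0 therefore cannot tell whether the called genes have such a site.

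Cyp2c55 had the smallest p of all genes, at 11.02, 11.66 and 12.09 in PB livers and 5.71, 6.23 and 7.15 in CMC livers. It rose by 5.27 ± 0.21, or 38.5-fold (adjusted p = 3.45e-13) without overlap between the groups. Cyp2b10, the classical CAR target, measured 9.03, 11.67 and 12.23 in PB livers and 4.66, 5.52 and 7.78 in CMC livers. It rose by 5.39 ± 0.44, or 42.0-fold (adjusted p = 1.98e-07), with no overlap although CMC replicate 4 at 28 days and CMC replicate 1 at 90 days lay well above the other CMC livers. All 3 of its probe sets were called, with changes of 4.17 to 5.43. Cyp2c54 measured 13.28, 13.79 and 13.84 in PB livers and 10.98, 11.78 and 12.05 in CMC livers, a rise of 2.03 ± 0.15 (adjusted p = 2.88e-08). The PB livers lay close together and the CMC livers more widely spread.

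Cyp2c37 rose by 2.05 ± 0.21 (adjusted p = 4.91e-06), with PB livers at 7.34 to 9.30 and CMC livers at 5.81 to 7.07. Its neighbour Cyp2c50 rose by 1.11 ± 0.14 (adjusted p = 0.000108), and PB replicate 5 at 28 days, at 12.87, was the 1 PB liver inside the CMC range. Cyp2c65 rose by 2.19 ± 0.26 (adjusted p = 5.4e-05), and its CMC values lay below background on 8 of 10 arrays. Cyp2b13, like Cyp2b9 a gene more expressed in female liver, measured 5.91, 8.73 and 10.11 in PB livers and 4.85, 5.23 and 5.64 in CMC livers. It rose by 3.18 ± 0.41 (adjusted p = 0.000209), and the groups did not overlap. Whether probes of related Cyp2b and Cyp2c genes bind each other's transcripts was not tested here. Cyp2c29 and Cyp3a11, both already among the brightest probe sets in CMC livers at medians of 13.84 and 14.74, had differences of 0.35 ± 0.08 (adjusted p = 0.157) and 0.14 ± 0.04 (adjusted p = 0.382).

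Among other oxidising and hydrolysing enzymes 1 of 53 was called. This was Ces2a, a carboxylesterase of the endoplasmic reticulum, which had tight groups at 13.42, 13.86 and 13.91 in PB livers and 12.35, 12.56 and 12.68 in CMC livers. Ces2a rose by 1.25 ± 0.07, or 2.38-fold (adjusted p = 1.05e-10), with 1.22 at 28 days and 1.28 at 90 days. Ephx1, the microsomal epoxide hydrolase, had a difference of 0.29 ± 0.14 (adjusted p = 0.697). None of the 20 tested genes of P450 electron supply and heme synthesis was called by limma, and 3 of them were higher and 1 lower at an unadjusted p under 0.05. Cyb5a, which encodes cytochrome b5, had the smallest p of these, at 0.19 ± 0.05 (adjusted p = 0.183), and Alas1, the first enzyme of heme synthesis, had a difference of -1.13 ± 0.54 (adjusted p = 0.697). Por, Cyp2a5 and Ugt1a1 were not analysed here.

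Conjugating enzymes held 4 called genes of 49 tested, all higher, and 14 higher with 1 lower at an unadjusted p under 0.05. Beside Gstt3, Gstt1 and Sult1c2 this was Sult1e1, the oestrogen sulfotransferase. Sult1e1 measured 4.36, 7.32 and 9.71 in PB livers and 3.72, 4.05 and 4.32 in CMC livers, where 4 of 10 arrays lay below background. It rose by 3.31 ± 0.39 (adjusted p = 6.32e-05), with 1.90 ± 0.36 at 28 days and 4.71 ± 0.36 at 90 days. The PB livers averaged 6.01 at 28 days and 8.69 at 90 days, and the pooled value lay between the 2 single-duration estimates. The difference between durations was not called by limma (adjusted p = 0.337). Sult1d1, a sulfotransferase of catecholamines, had a difference of 1.13 ± 0.25 that just missed the call (adjusted p = 0.0669). Another of its probe sets, tested singly, was called at 1.492 (adjusted p = 0.0145), and the mean of its probe sets gave 1.31 (adjusted p = 0.0205). Of 16 alternatives other than removals of a single array, 3 called Sult1d1. Its adjusted p was 0.35 with a replicate block and 0.173 without the 2 PB arrays that stood apart.

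Of 35 transporters 1 was called. Abcc4, an export pump for conjugates and cyclic nucleotides, measured 5.90, 6.59 and 7.84 in PB livers and 4.75, 5.43 and 6.42 in CMC livers. It rose by 1.26 ± 0.19 (adjusted p = 0.00127), with 6 PB livers above all CMC livers. Of 40 receptors and regulators of drug response, 0 were called by limma, with 1 higher and 3 lower at an unadjusted p under 0.05. The level of Nr1i3, which encodes CAR itself, was 9.14, 9.78 and 10.39 in PB livers and 8.78, 9.69 and 10.29 in CMC livers, a difference of 0.06 ± 0.19 (adjusted p = 0.915).

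S100a8, which encodes a calcium-binding protein abundant in neutrophils, had the largest change of all called genes and an uneven one. It measured 5.42, 12.61 and 13.21 in PB livers and 4.99, 5.64 and 7.10 in CMC livers. PB replicate 5 at 90 days, at 5.42, lay among the CMC livers, and PB replicate 5 at 28 days, at 7.80, lay just above them, while the other 8 PB livers were at 11.73 or higher. The change was 5.67 ± 0.79 (adjusted p = 0.000447), and the call held in all 20 removals of a single array with changes of 5.43 to 6.35. S100a9, whose protein pairs with that of S100a8 in neutrophils, had a difference of -0.08 ± 0.22 (adjusted p = 0.908). Of 11 neutrophil markers 9 lay above 0, with a median of 0.161, and 3 were higher and 0 lower at an unadjusted p under 0.05. Their summed level was 8.702, 12.7 and 13.26 in PB livers and 8.52, 8.765 and 9.243 in CMC livers. Without S100a8 the sum over the other 10 was 8.465, 8.696 and 9.078 in PB livers and 8.387, 8.611 and 8.873 in CMC livers. Serpinb1a, an inhibitor of neutrophil proteases, rose by 2.51 ± 0.35 (adjusted p = 0.000447), at 7.398, 8.62 and 9.52 in PB livers and 3.99, 6.09 and 7.396 in CMC livers, and both of its probe sets were called.

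Other genes that rose have roles outside drug clearance. Nebl, the gene of the actin-binding protein nebulette, measured 5.43, 7.49 and 8.66 in PB livers and 3.86, 3.94 and 4.93 in CMC livers, below background on 6 of 10 CMC arrays. It rose by 3.07 ± 0.32 (adjusted p = 9.59e-06). Orm3, an acute-phase orosomucoid, rose by 1.82 ± 0.26 (adjusted p = 0.000569), with 1.19 ± 0.32 at 28 days and 2.45 ± 0.32 at 90 days, and CMC replicate 5 at 28 days lay within the PB range at 8.28. Meig1, a gene of spermatogenesis, rose by 1.59 ± 0.22 (adjusted p = 0.000447), with CMC values below background on 9 of 10 arrays. Pnliprp1, a pancreatic lipase-related gene, rose by 0.80 ± 0.12 (adjusted p = 0.00156), at 4.64 to 5.58 in PB livers and 3.76 to 4.87 in CMC livers. It was 1 of 9 exocrine pancreas markers tested, of which 9 lay above 0 with a median of 0.0952, and 5 without the 2 PB arrays that stood apart. Their summed level was 11.31 to 11.93 in PB livers and 11.14 to 11.97 in CMC livers.

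The 3 called genes with no assigned role here were 4931406C07Rik, Gm10419 and 9030619P08Rik. 4931406C07Rik rose by 0.99 ± 0.09 (adjusted p = 1.87e-06) without overlap, at 12.63 to 13.37 in PB livers and 11.53 to 12.52 in CMC livers. Gm10419 rose by 2.05 ± 0.26 (adjusted p = 0.000124), also without overlap. 9030619P08Rik rose by 1.47 ± 0.23 (adjusted p = 0.00195), with only 1 PB liver above all CMC livers. Its call was lost without the duration term (adjusted p = 0.0547) and with the replicate block (adjusted p = 0.055). Its PB livers averaged 9.75 at 28 days and 9.22 at 90 days, and its CMC livers 8.77 and 7.25.

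The probe sets of some called genes gave different values. Wdr18, a gene of ribosome assembly, rose by 1.13 ± 0.16 (adjusted p = 0.000447) on its brightest probe set, at 8.65 to 9.93 in PB livers and 8.02 to 8.59 in CMC livers. Without probe sets that can bind several transcripts (_x_at and _s_at) the change was -0.01 (adjusted p = 0.984). Dnase2a, S100a8 and Cyp2c65 had only a probe set of that kind, so that setting did not measure them. Rcan3, a calcineurin regulator, fell by 0.35 ± 0.07 (adjusted p = 0.0268), at 4.42 to 4.77 in PB livers and 4.79 to 5.26 in CMC livers. The groups did not overlap on that probe set. Rcan3's other probe set, near background in CMC livers, had the opposite sign at 0.20 ± 0.10 (adjusted p = 0.733, probe sets tested singly). Averaging the probe sets of Rcan3 gave -0.07 (adjusted p = 0.739). Nsl1, a kinetochore gene, rose by 1.23 ± 0.19 (adjusted p = 0.00145) on the probe set used, while its other probe set, near background, had a difference of 0.05. Nebl's other 2 probe sets lay below background, with differences of 0.125 and 0.158, and the mean of its probe sets gave 1.12 (adjusted p = 8.27e-05). Of the 32 genes, 24 had 1 probe set and 8 had several. In 9 of the 32 the CMC mean lay less than 0.5 log2 units above background, and 4 (Nebl, Cyp2c65, Meig1 and Olfr976) passed the filter on dim genes only through their PB arrays.

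A pooled effect assumes the same change at both durations, and the difference between durations was tested for each gene. It was called for 0 genes by limma (lowest adjusted p = 0.337), with 221 genes at an unadjusted p under 0.05, or 1.38% of the genes tested. Sult1e1 had the smallest p (2.1e-05 unadjusted), with the 90-day effect 2.81 ± 0.51 above the 28-day effect. Of the 32 called genes, Orm3, Nebl and 9030619P08Rik also had an unadjusted p under 0.05. Lrrc24, a leucine-rich repeat gene, was the 1 gene called at 90 days and not in the pooled fit, with 0.30 ± 0.22 at 28 days, 1.39 ± 0.22 at 90 days and 0.84 ± 0.19 pooled (adjusted p = 0.0924). The 5 genes that came nearest to the call without reaching it were Efnb2 (0.39, adjusted p = 0.0549), Apoa4 (0.83, adjusted p = 0.0549), Sult1d1, Gabrb1 (0.36, adjusted p = 0.0669) and Prom1 (0.997, adjusted p = 0.0706). Apoa4 encodes an apolipoprotein, Efnb2 a ligand of Eph receptors, Gabrb1 a GABA receptor subunit and Prom1 the membrane protein prominin.

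The gene groups beyond drug clearance were described by their counts and medians, beside 55.8% of genes above 0 and a median of 0.0229 log2 units over all 16054 genes. Of 29 genes more expressed in female than in male mouse liver, 22 were above 0 with a median of 0.389, and 4 were called (Sult1e1, Cyp2b13, Gstt3 and Cyp2b9, all of them also counted above). At an unadjusted p under 0.05, 11 of the 29 were higher and 0 lower. Of 30 genes more expressed in males, 10 were above 0 with a median of -0.13. Of these 30, 0 were called, and 3 were lower and 1 higher at an unadjusted p under 0.05. Obp2a, an odorant-binding protein, had the smallest p among them, at 3.92, 4.40 and 6.02 in PB livers and 4.41, 6.30 and 10.57 in CMC livers (difference -2.01 ± 0.56, adjusted p = 0.353). No gene of the lists named in the rest of this paragraph was called by limma. Of 29 genes of cholesterol synthesis and uptake, only 5 lay above 0, with a median of -0.323, and 15 were lower and 1 higher at an unadjusted p under 0.05. Hmgcs1, which makes the precursor of mevalonate, measured 11.59, 12.51 and 13.26 in PB livers and 12.60, 13.22 and 13.58 in CMC livers (difference -0.60 ± 0.15, adjusted p = 0.201). Sqle, the squalene epoxidase, had a difference of -0.83 ± 0.23 (adjusted p = 0.309). Of 45 genes of folding in the endoplasmic reticulum and heat shock, only 3 lay above 0, with a median of -0.342, and 14 were lower and 0 higher at an unadjusted p under 0.05. Pdia3, a disulfide isomerase, had the smallest p of these (difference -0.38 ± 0.13, adjusted p = 0.570).

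The medians of several lists moved with the 2 PB arrays that stood apart. Without them the cholesterol list kept a median of -0.294, the folding list one of -0.235 and the female list one of 0.349. The folding genes lower at an unadjusted p under 0.05 then numbered 6, against 14 with all arrays. With array weights, which counted these 2 arrays less, they numbered 17. With the first principal component as a covariate they numbered 14. Fatty acid and triglyceride synthesis had a median of -0.185 over all arrays and 0.0289 without these arrays, and glucose metabolism had -0.185 and 0.068. The receptor list had -0.23 and -0.00164. Cytosolic ribosomal proteins, at 0.0868, and respiratory chain subunits, at 0.0567, came to -0.0046 and -0.00457 without these arrays. Of 48 cell cycle genes, 33 lay above 0 with a median of 0.0786 and 0 called. Without these arrays 28 lay above 0 with a median of 0.0182. At an unadjusted p under 0.05, 3 were then higher and 2 lower, against 8 and 3 with all arrays. Mki67, a marker of dividing cells, was at 0.23 ± 0.09 with all arrays (adjusted p = 0.628). Gadd45b, a growth arrest gene, had a difference of 0.45 ± 0.15 (adjusted p = 0.570), Meg3, a long non-coding RNA, 0.70 ± 0.31 (adjusted p = 0.697), and Cyp7a1, the first enzyme of bile acid synthesis, -1.01 ± 0.34 (adjusted p = 0.552).

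**Figure D4:**
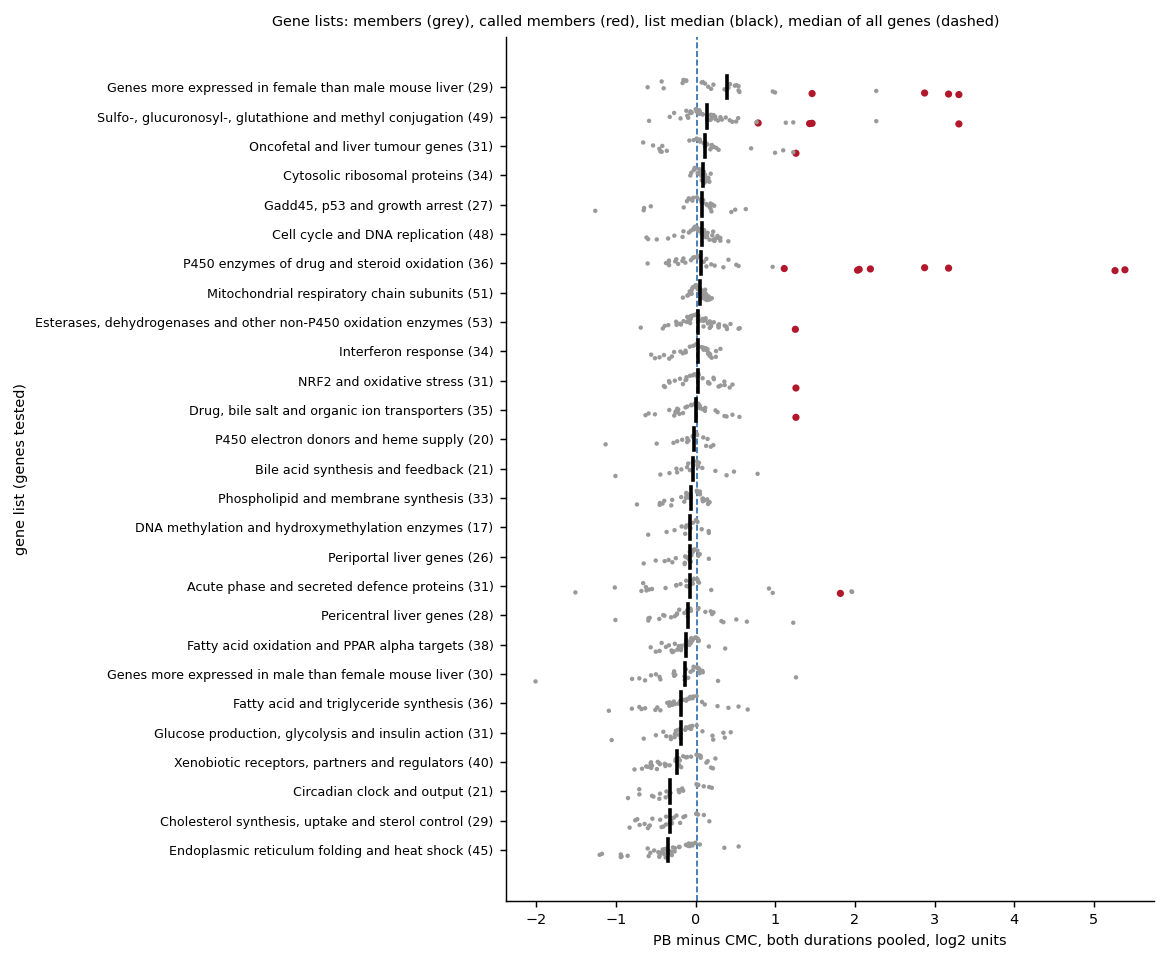
Pooled effect (PB minus CMC, log2 units) of the tested members of 27 gene lists, each point a gene and each bar a list median, with the median of all genes as a line. The medians of the cholesterol and folding lists lie at -0.323 and -0.342 and that of the female list at 0.389, while called genes stand far to the right in the P450 and conjugation lists.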

How the data were processed

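RNA from 20 livers was hybridised to Affymetrix 3' arrays. Per the submitters' processing notes, the authors used RMA to make the deposited log2 intensities. RMA corrects background, equalises arrays and combines the probes of a probe set. RMA's version and the genome build are not given in the sources used here. Differences between such array intensities are compressed near background and near saturation. No counts exist, so the number of arrays limits the precision.

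Of 45037 probe sets, 34945 had 1 gene symbol in the 2016 platform annotation, 932 several and 9160 none, and 34741 Entrez identifiers matched RefSeq. The probe set with the highest mean stood for a gene (18193 genes). Genes above their array's 25th percentile (3.96 to 4.26, called background here) on at least 5 arrays were tested, leaving 16054 and removing 2139. The pooled fit was an additive model of treatment and duration with 17 residual degrees of freedom, fitted in limma 3.58.1 (R 4.3.3) with a variance prior that follows intensity. A fit with 4 group means (16 residual degrees of freedom) gave the effects at each duration and their difference. Tests were two-sided, with Benjamini-Hochberg adjustment over all genes and a call at an adjusted p under 0.05. Mice are separate animals. The labels do not say whether replicate numbers pair them. The deviations of same-numbered mice correlated between -0.599 and 0.36, over 0.1 in 2 of 10 pairs. These correlations cannot exclude a pairing, because arrays that stand apart weigh on them. The main fit had no replicate term, and a replicate block was run as an alternative.

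The 40 gene lists (1017 genes tested), the comparison and the rule for naming genes were chosen with earlier results of these data known. The rule named all called genes when 40 or fewer, up to 3 called members of a list or otherwise the 2 with the smallest p, genes called at 1 duration and not pooled, a standing set of drug-response genes, the 3 genes with the smallest p for the difference between durations, and the 5 that just missed. Gstt2, S100a9 and the genes of the closing section were picked after their values were seen. Alternatives covered filters, probe sets, variance prior, model, weights, scaling, the replicate block, the first principal component and omitted arrays. The fit was tested on simulated data. Figures used Python 3.11.15 and matplotlib 3.10.9.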

Additional observations from a re-analysis of the deposited data

Results flagged for a closer look

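In each group of 5, the highest or lowest mouse was set against the others by its gap to the nearest mouse over the range of the group (above 0.710). Of 128 groups of called genes 15 passed, where chance gives about 1 in 20. Over all genes named by the rule, the called ones included, 37 of 432 groups passed. Of the 15 in called genes, PB replicate 5 at 28 days accounted for 6. It was the lowest of its group for Ces2a (13.42), Cyp2c37 (7.338), Cyp2c50 (12.87), S100a8 (7.796) and Fam171a1 (4.489), and the highest for 9030619P08Rik (10.26). PB replicate 3 at 90 days was the lowest for Cyp2c54 (13.28) and Cyp2b10 (10.54), and PB replicate 5 at 90 days for Nebl (6.877) and S100a8 (5.418). Among CMC mice, replicate 1 at 90 days was the highest for Cyp2b10 (7.763), replicate 4 at 90 days the highest for Nebl (4.382), and replicate 3 at 28 days the lowest for Cyp2c50 (11.81). CMC replicate 5 at 28 days was the lowest for Serpinb1a (3.993) and the highest for Orm3 (8.276).

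Among 5984 probe sets with no listed gene that were tested, 6 were called in the pooled fit of single probe sets, all higher in PB, of 45 called in all (0.126% of 35662). The 2 largest rises among them were 2.005 and 1.903 log2 units.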

How the results depend on the processing

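Pooled calls numbered 53 with array weights (49 higher) and 55 with the first principal component as a covariate (48 higher, 7 lower). The 28-day arrays alone gave 4 calls (4 higher, 0 lower) and the 90-day arrays alone 21 (1 lower). A fit of only the groups compared gave 4 calls at 28 days, against 8 from all 4 groups. Leaving out each array in turn gave 28 to 37 calls, 25 to 34 higher and 2 to 3 lower, and 27 of the 32 genes kept their call in all 20 removals. Exceptions were Gstt1, Rcan3, Cpe, Cyp2b9 and A4galt. Wdr18 reversed to -0.00592 without _x_at and _s_at probe sets (adjusted p = 0.984), where its bright probe set is removed. The replicate block gave 26 calls, losing among others 9030619P08Rik (adjusted p = 0.055), Sult1c2 (0.0747) and Cyp2b9 (0.164). Other filters, probe-set rules, variance priors, models and scalings gave 27 to 36 called genes. Testing every probe set singly called 45 probe sets, where a gene can count more than once. Centring on the 75th percentile moved the median of all genes to 0.094. The difference between durations was called for 0 genes in each alternative run. The cause of the moved counts was not tested. Signal near background limits the 9 dim genes.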

Other observations

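In 3 alternatives (without the 2 PB arrays that stood apart, with array weights, and with the first principal component as a covariate), 10 further genes were called in all 3, and 32 in at least 1. The alternatives are not independent: each removes the same 2 PB arrays, weights them less, or fits the component on which they stood apart. Their weights were 0.126 (PB replicate 5 at 28 days) and 0.239 (PB replicate 3 at 90 days). Several of the further genes belong to drug clearance. Cyp1a2, a P450 that clears caffeine and aromatic amines, had a pooled difference of 0.51 (adjusted p = 0.683) and 0.81 (adjusted p = 0.00114) without the 2 arrays. Gstm3, a glutathione transferase of the mu class, had 1.23 (adjusted p = 0.0984) and 1.54 (adjusted p = 0.000375). Cyp2d12 had 1.41 (adjusted p = 0.0898) and 1.68 (adjusted p = 0.00769), Gsta2, an alpha-class glutathione transferase, 0.77 (adjusted p = 0.0984) and 0.89 (adjusted p = 0.0215), and Cyp2c29 0.35 (adjusted p = 0.157) and 0.41 (adjusted p = 0.0229). Prom1, Cyp2d10, Prss8 and Slc13a2, a dicarboxylate transporter, were also higher, and Fam47e was the 1 gene of the 10 that was lower, at -1.06 (adjusted p = 0.0157) without the 2 arrays.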
